A study of Mus musculus with 32 samples.

Results

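Neurosphere cultures of mouse brain tumours driven by HRAS and MYC together were compared with cultures of tumours driven by MYC alone. The comparison takes 13 of the 32 arrays of the study, the 7 labelled HRAS+MYC overexpression and the 6 labelled MYC overexpression, over 19938 genes with 1 probe set each. All cultures were of the strain B6;129-Trp53tm1Brd, and deficiency of p53 was shared by every group. Per the labels and the design text, neurosphere cells, which grow as floating clusters, were cultured from the wall of the lateral ventricle of postnatal mice, made to overexpress the oncogenes and transplanted into the brain. Tumours given HRAS+MYC were labelled AT/RT-like, and those given MYC alone were labelled PNET, a primitive neuroectodermal tumour. From the tumours, cells that expressed the transgene were sorted by flow cytometry and again grown as neurospheres. A further group (MYC then HRAS, n = 2) came from secondary tumours that arose after PNET-derived sphere cells received HRAS, and another received HRAS alone (n = 5). Differences are HRAS+MYC minus the other group, with the standard error (SE) of the fit. The promoter of the transgenes, the exact age of the mice and the number of tumours behind the arrays of a group are not given in the labels. The p-values of the limma fit therefore measure the spread between arrays, part of which may be technical.

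HRAS is a small GTPase that, in its active form, switches on the RAF, MEK and ERK kinases, the mitogen-activated protein kinase (MAPK) cascade. The cascade induces transcription factors of the FOS, EGR and ETS families and its own inhibitors, among them the dual-specificity phosphatases and the Sprouty proteins. MYC pairs with MAX on the DNA motif CACGTG and drives ribosome production and growth. Atypical teratoid/rhabdoid tumour (AT/RT) is a malignant brain tumour of young children. In patients it is defined by loss of SMARCB1, or more rarely SMARCA4, both parts of SWI/SNF, a complex that remodels chromatin, and its cells can stain for epithelial keratins, vimentin and smooth muscle actin.

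Stains of tumour tissue read protein, whereas the values here are RNA levels of cultured cells, so they do not test the working name AT/RT-like. At the RNA level these markers did not all differ in 1 direction between HRAS+MYC and MYC cultures. Values are log2 expression levels from the robust multi-array average (RMA), and over the 13 arrays the median of all gene values was 6.27 and the lower quartile 4.69. Krt8, a keratin of simple epithelia, was 10.66 to 12.41 (median 11.47) in HRAS+MYC arrays, against 5.87 to 6.46 (median 6.08) in MYC arrays. Its partner Krt18 was 11.04 to 12 (median 11.47) in HRAS+MYC arrays, against 5.20 to 5.88 (median 5.60) in MYC arrays. For both keratins, and for the intermediate filament vimentin (Vim), every HRAS+MYC array lay above every MYC array. Vim was 12.98 to 13.34 (median 13.18) in HRAS+MYC arrays and 9.16 to 12.38 (median 11.65) in MYC arrays, a difference of 1.73 ± 0.305 SE with an adjusted p of 4.81e-05. Acta2, smooth muscle actin, was 5.38 to 5.90 (median 5.70) in HRAS+MYC arrays and 5.72 to 6.96 (median 6.28) in MYC arrays, so the keratin and vimentin differences were not accompanied by higher smooth muscle actin. Its difference of -0.63 ± 0.374 SE did not pass (adjusted p 0.206, limma), although with only these 2 groups in the fit it passed as lower in HRAS+MYC (adjusted p 0.0171). Smarcb1 RNA was still present. It was 9.79 to 10.08 (median 9.91) in HRAS+MYC arrays against 10.16 to 10.66 (median 10.42) in MYC arrays, without overlap, a fall of 0.52 ± 0.098 SE (adjusted p 0.000111). Smarca4, an ATPase of the same complex, was 9.79 to 10.16 (median 9.99) in HRAS+MYC arrays and 9.94 to 10.35 (median 10.27) in MYC arrays and did not pass (difference -0.18 ± 0.094 SE, adjusted p 0.144).

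The 2 groups stood far apart. Over all genes, 6818 (34.2%) passed at an adjusted p under 0.05 in limma, 3141 of them (15.8%) higher and 3677 (18.4%) lower in HRAS+MYC cells. When each array was centred on its median, the difference of all genes shifted by 0.106 and the share of higher calls was 63% instead of 46.1%, so the balance of the directions depended on scaling. Of the genes that passed, 465 were higher and 332 lower by more than 2 log2 units, and 79 were higher and 22 lower by more than 4. All HRAS+MYC arrays were separated from all MYC arrays for 3069 genes (15.4%), 1465 of them (7.35%) higher and 1604 (8.04%) lower. The first principal component of the 13 arrays held 59.3% of the variance, with scores of -57.7 to -49.5 in HRAS+MYC arrays and 55.1 to 71 in MYC arrays.

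The HRAS+MYC arrays spread less than the MYC arrays. The median standard deviation of a gene was 0.19 over HRAS+MYC arrays and 0.242 over MYC arrays, and 191 genes had a standard deviation above 1 in HRAS+MYC arrays, against 776 in MYC arrays. Along the second component, with 14.9% of the variance, MYC replicates 4 and 5 stood at 64.8 and 57.7, the other MYC arrays between -32.4 and -24.7, and the HRAS+MYC arrays between -2.73 and 0.663. List counts and medians that these 2 MYC cultures moved by over 1.5 times, or across 0, are given below with and without them for the lists whose median is printed. In this bulk material, fewer cells of a type and less RNA per cell cannot be told apart.

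Among genes whose arrays did not overlap, the 15 largest rises were led by genes with little or no signal in MYC cells. Anxa1, an annexin that binds membranes in the presence of calcium, was 12.14 to 12.74 (median 12.36) in HRAS+MYC arrays and 4.14 to 5.92 (median 4.52) in MYC arrays, a rise of 7.67 ± 0.337 SE. Ptgs2, the inducible cyclooxygenase that starts prostaglandin synthesis, was 11.93 to 13.19 (median 12.83) in HRAS+MYC arrays against 5.06 to 6.13 (median 5.45) in MYC arrays, a rise of 7.14 ± 0.333 SE. Both put all MYC cultures near the lower part of the expression scale and all HRAS+MYC cultures near its top. The sodium/proton exchanger Slc9a2 was 10.75 to 11.45 (median 11.03) in HRAS+MYC arrays and 4.59 to 5.04 (median 4.88) in MYC arrays, and its rise was 6.21 ± 0.172 SE. S100a6, a calcium-binding protein, was 11.11 to 12.56 (median 11.88) in HRAS+MYC arrays and 4.79 to 5.83 (median 5.23) in MYC arrays. Nrn1, a membrane-anchored protein that promotes neurite growth in neurons, rose by 5.75 ± 0.5 SE, and the ephrin receptor Epha2 by 5.57 ± 0.206 SE. The largest adjusted p among these 6 genes was that of Nrn1, at 5.05e-10.

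**Figure D1:**
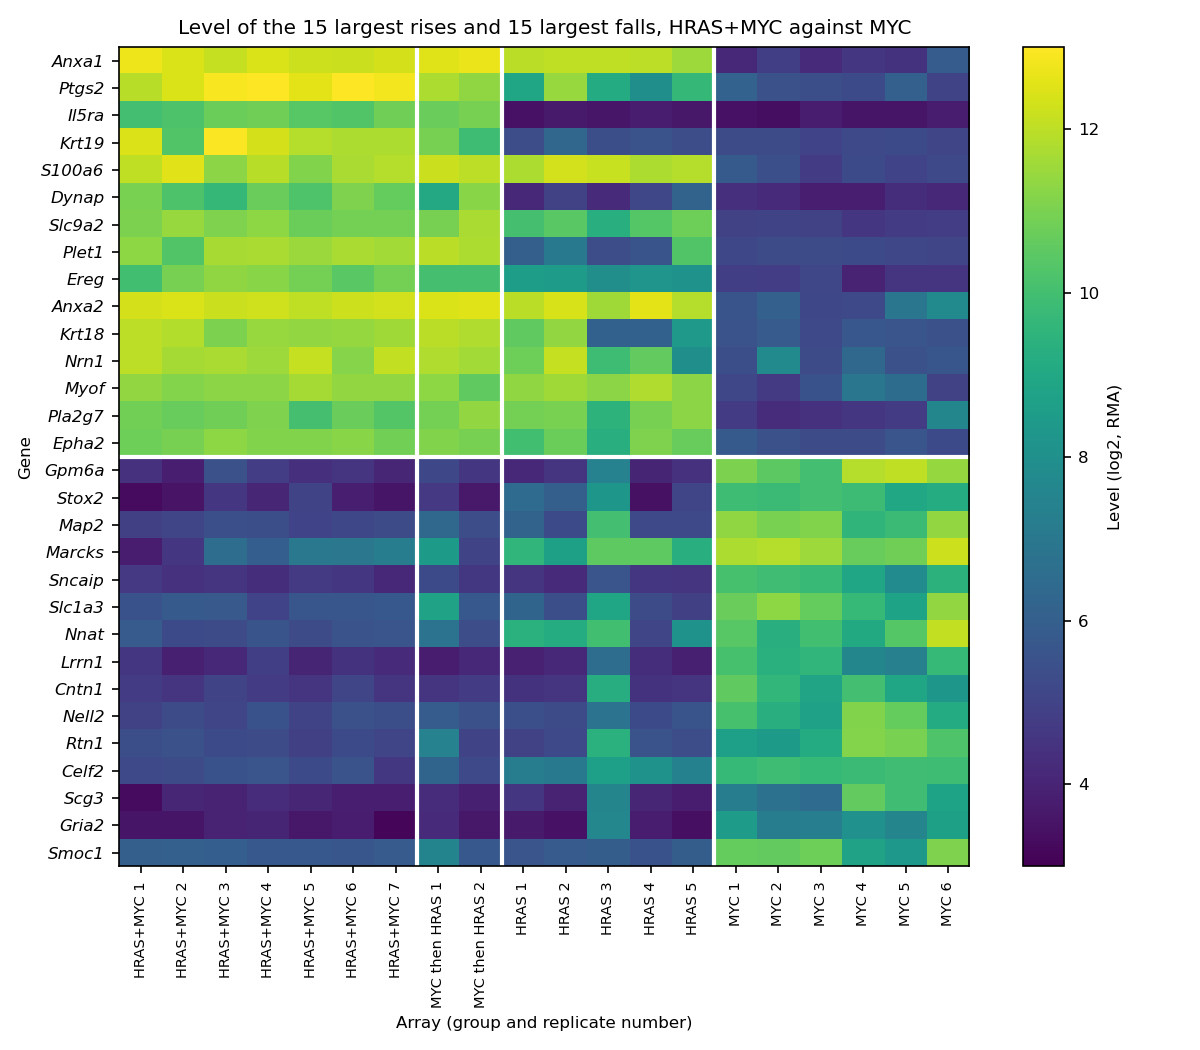
Level (log2, RMA) of the 15 largest rises (upper block) and the 15 largest falls (lower block) in HRAS+MYC against MYC, with 1 column per array, in the order HRAS+MYC, MYC then HRAS, HRAS and MYC. The 30 genes were chosen among those whose 7 HRAS+MYC and 6 MYC arrays do not overlap (15.4% of all genes), so that separation was set by the choice. The MYC then HRAS columns lie close to HRAS+MYC for most genes. The HRAS columns resemble HRAS+MYC for some genes (Anxa1, S100a6) and MYC for others (Il5ra, Krt19).

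Promoter sequences are shown for 4 of these genes because their windows hold TGANTCA or the MYC/MAX motif CACGTG, patterns of factors named above. TGANTCA is a loose form of the AP-1 motif, bound by FOS and JUN proteins, whose middle base is C or G. Windows run from 250 bases before to 50 after the annotated start in RefSeq (GRCm38.p6), and the motif is in capitals. Il5ra, the alpha chain of the interleukin 5 receptor, lies on the minus strand (chr6:106748988-106749287), Plet1, an epithelial surface antigen of the placenta, on the plus strand (chr9:50494275-50494574), Anxa2, another annexin, on the plus strand (chr9:69453433-69453732) and Ptgs2 on the plus strand (chr1:150099781-150100080).
Il5ra: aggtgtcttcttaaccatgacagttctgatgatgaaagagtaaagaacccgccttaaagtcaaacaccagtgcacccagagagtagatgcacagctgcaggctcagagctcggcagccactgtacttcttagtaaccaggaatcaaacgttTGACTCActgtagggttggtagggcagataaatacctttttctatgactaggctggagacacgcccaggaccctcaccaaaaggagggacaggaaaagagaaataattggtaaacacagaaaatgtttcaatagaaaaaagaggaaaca
Plet1: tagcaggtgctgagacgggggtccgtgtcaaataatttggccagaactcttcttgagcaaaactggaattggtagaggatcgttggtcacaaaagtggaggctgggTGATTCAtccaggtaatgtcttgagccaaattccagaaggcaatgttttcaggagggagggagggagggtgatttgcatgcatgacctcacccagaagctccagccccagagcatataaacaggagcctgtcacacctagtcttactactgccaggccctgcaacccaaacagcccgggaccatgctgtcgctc
Anxa2: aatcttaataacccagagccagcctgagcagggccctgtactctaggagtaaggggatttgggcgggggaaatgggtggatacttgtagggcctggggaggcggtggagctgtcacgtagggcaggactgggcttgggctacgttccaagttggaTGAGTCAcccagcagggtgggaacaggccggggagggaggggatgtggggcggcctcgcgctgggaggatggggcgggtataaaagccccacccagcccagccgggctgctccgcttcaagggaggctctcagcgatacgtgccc
Ptgs2: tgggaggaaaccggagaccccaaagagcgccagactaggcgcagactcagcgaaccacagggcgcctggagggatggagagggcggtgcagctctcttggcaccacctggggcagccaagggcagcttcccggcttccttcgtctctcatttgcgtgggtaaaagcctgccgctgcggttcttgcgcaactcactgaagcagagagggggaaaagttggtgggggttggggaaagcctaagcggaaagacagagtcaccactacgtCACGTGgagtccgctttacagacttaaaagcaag
The motif begins at -99 from the start site in Il5ra, -144 in Plet1, -95 in Anxa2 and 17 in Ptgs2. The marked letters are TGACTCA in Il5ra and TGAGTCA in Anxa2, but TGATTCA in Plet1, which matches only the loose form. Among the 10 windows of the 15 largest rises that the promoter table holds, 3 contain TGANTCA and 2 contain CACGTG, on either strand. Among 20 windows of 11 genes of the largest falls, 1 contains TGANTCA and 0 contain CACGTG. Over all 32851 promoter windows the shares are 7.81% for TGANTCA and 7.15% for CACGTG. These matches describe the letters only, and binding was not measured.

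Genes induced by RAS signalling rose in both lists examined. Of 14 genes for feedback inhibitors of the MAPK cascade, 11 rose and 0 fell, with a median difference of 1.27, where 15.8% of all genes rose and the median of all genes was 0.0315. Spry4, a Sprouty protein that restrains RAS activation, was 9.88 to 11.45 (median 10.95) in HRAS+MYC arrays and 5.66 to 8.11 (median 7.01) in MYC arrays, a rise of 3.89 ± 0.308 SE. Dusp4, a phosphatase that inactivates ERK in the nucleus, was 9.62 to 11.12 (median 10.64) in HRAS+MYC arrays and 6.06 to 9.13 (median 7.13) in MYC arrays, and Errfi1, an inhibitor of the EGF receptor, was 10.66 to 11.35 (median 11.15) in HRAS+MYC arrays and 7.09 to 8.68 (median 7.77) in MYC arrays. Neither gene overlapped between the groups. Among 16 transcription factors and early response genes downstream of MAPK, 10 rose and 0 fell, with a median of 1.03. Fosl1, the AP-1 subunit FRA1, stood at 9.46 to 10.16 (median 9.82) in HRAS+MYC arrays and 5.12 to 5.74 (median 5.51) in MYC arrays, and rose by 4.33 ± 0.155 SE with an adjusted p of 5.99e-18. The immediate early gene Ier3 rose by 4.83 ± 0.252 SE and Phlda1, an early response gene, by 3.06 ± 0.204 SE. Without MYC replicates 4 and 5, 9 of the 16 rose and 2 fell.

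Genes of the EGF family moved in both directions. Of its 10 measured ligands and receptors, 5 rose and 3 fell, where 15.8% of all genes rose and 18.4% fell. The ligand epiregulin (Ereg) was 9.99 to 11.34 (median 10.93) in HRAS+MYC arrays and 3.98 to 5.11 (median 4.67) in MYC arrays, a rise of 6.19 ± 0.215 SE. The ligands betacellulin (Btc) and heparin-binding EGF (Hbegf) rose by 4.31 ± 0.266 SE and 2.72 ± 0.263 SE. The receptors Egfr and Erbb4 moved the other way. Egfr was 5.97 to 7.59 (median 6.98) in HRAS+MYC arrays and 6.19 to 10.06 (median 9.35) in MYC arrays, with overlap, and fell by 1.70 ± 0.56 SE (adjusted p 0.019), a call that was lost without MYC replicate 3 (adjusted p 0.0506) or 6 (0.0608). Erbb4, a receptor for neuregulins, was 4.69 to 5.16 (median 5.09) in HRAS+MYC arrays and 6.50 to 9.13 (median 8.22) in MYC arrays, a fall of 2.89 ± 0.306 SE. Ereg and Btc were also higher in HRAS+MYC than in HRAS cells, by 2.56 ± 0.226 SE and 2.56 ± 0.28 SE, whereas Hbegf was not (difference -0.26 ± 0.277 SE, adjusted p 0.548).

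**Figure D2:**
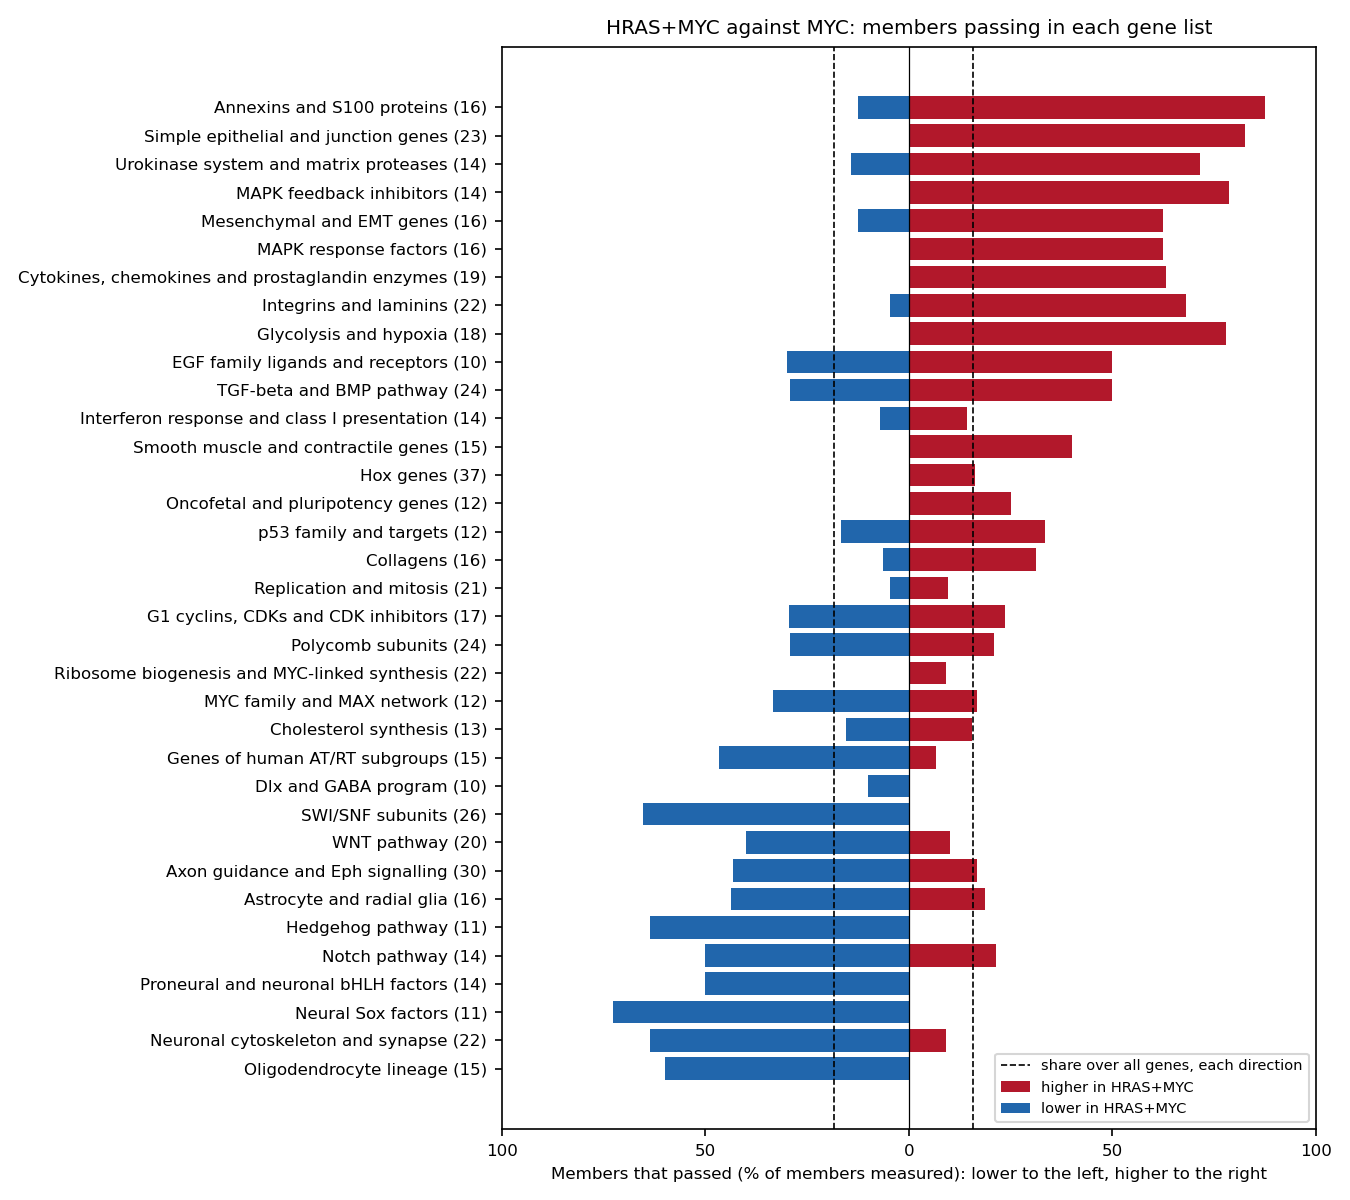
Share of the measured members of each gene list that passed as higher (red, to the right) or lower (blue, to the left) in HRAS+MYC against MYC, in percent, with the number measured in brackets and lists ordered by median difference. The dashed lines mark the shares over all genes, 15.8% higher and 18.4% lower, and annexins, epithelial genes and MAPK feedback inhibitors lie far past them on the right while neuronal, oligodendrocyte and neural Sox genes do so on the left.

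Epithelial genes formed one of the most uniformly raised groups. Of 23 genes for simple keratins, desmosomes and tight or adherens junctions, 19 rose and 0 fell in HRAS+MYC cells, with a median of 2.24. Over all genes, 15.8% rose and 18.4% fell. For 17 of the 23 the arrays did not overlap (7.35% of all genes). Krt19 was 10.27 to 12.93 (median 11.87) in HRAS+MYC arrays and 5.02 to 5.31 (median 5.22) in MYC arrays, a rise of 6.72 ± 0.261 SE. Krt8 and Krt18 rose by 5.34 ± 0.234 SE and 5.95 ± 0.566 SE. A further 3 junction or surface genes were chosen after their values were seen. E-cadherin (Cdh1) was 6.86 to 8.66 (median 7.62) in HRAS+MYC arrays and 4.95 to 5.87 (median 5.31) in MYC arrays, and rose by 2.29 ± 0.226 SE. Epcam, the epithelial cell adhesion molecule, was 7.83 to 9.98 (median 9.05) in HRAS+MYC arrays and 5.11 to 6.04 (median 5.43) in MYC arrays, and the tight junction protein Cldn6 was 8.11 to 11.30 (median 9.68) in HRAS+MYC arrays and 5.01 to 5.42 (median 5.28) in MYC arrays. Not a single MYC culture reached the lowest HRAS+MYC culture for any of these 6 genes.

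Many of these genes were also far above their level in HRAS cells, although both comparisons use the same HRAS+MYC arrays. Set against HRAS, 16 of the 23 epithelial genes were higher and 0 lower in HRAS+MYC cells, with a median of 1.35, where 24.7% of all genes passed, 11.7% higher and 13% lower. The 8 genes with the largest smaller rise over MYC and HRAS were Il5ra, Krt19, Dynap, Anxa8, Aqp8, Krt8, Cdh17 and Plet1. Il5ra, which is normally found on eosinophils and some B cells, was 10 to 10.82 (median 10.41) in HRAS+MYC arrays, 10.70 and 10.93 in MYC then HRAS arrays, 3.48, 3.60, 3.65, 3.72 and 3.75 in HRAS arrays and 3.36 to 3.80 (median 3.57) in MYC arrays. Among these 4 groups, every array with both oncogenes was more than 6 log2 units above every array with 1 of them. Its rise was 6.88 ± 0.113 SE over MYC cells (adjusted p 3.32e-26) and 6.83 ± 0.118 SE over HRAS cells (adjusted p 1.59e-25). Krt19 was 9.88 and 10.94 in MYC then HRAS arrays and 5.36, 5.38, 5.40, 5.58 and 6.30 in HRAS arrays. Plet1 was 10.29 to 11.72 (median 11.62) in HRAS+MYC arrays, 11.77 and 11.98 in MYC then HRAS arrays, 5.36, 5.59, 6.03, 7.06 and 10.29 in HRAS arrays and 5.10 to 5.30 (median 5.21) in MYC arrays, and a single HRAS culture reached the lowest HRAS+MYC value. The annexin Anxa8 rose by 5.37 ± 0.333 SE over MYC and 4.99 ± 0.351 SE over HRAS cells, and the water channel Aqp8, found in gut and pancreas, by 4.80 ± 0.229 SE and 4.85 ± 0.241 SE. Cdh17, a cadherin of the intestinal epithelium, was the most variable of the 8 in HRAS+MYC arrays, at 6.56 to 11.69 (median 8.91), against 3.96 to 4.39 (median 4.29) in MYC arrays. Dynap, a membrane protein, was 9.65 to 11.08 (median 10.65) in HRAS+MYC arrays, 4.12, 4.22, 4.98, 5.14 and 6.17 in HRAS arrays and 3.83 to 4.35 (median 4.16) in MYC arrays.

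**Figure D3:**
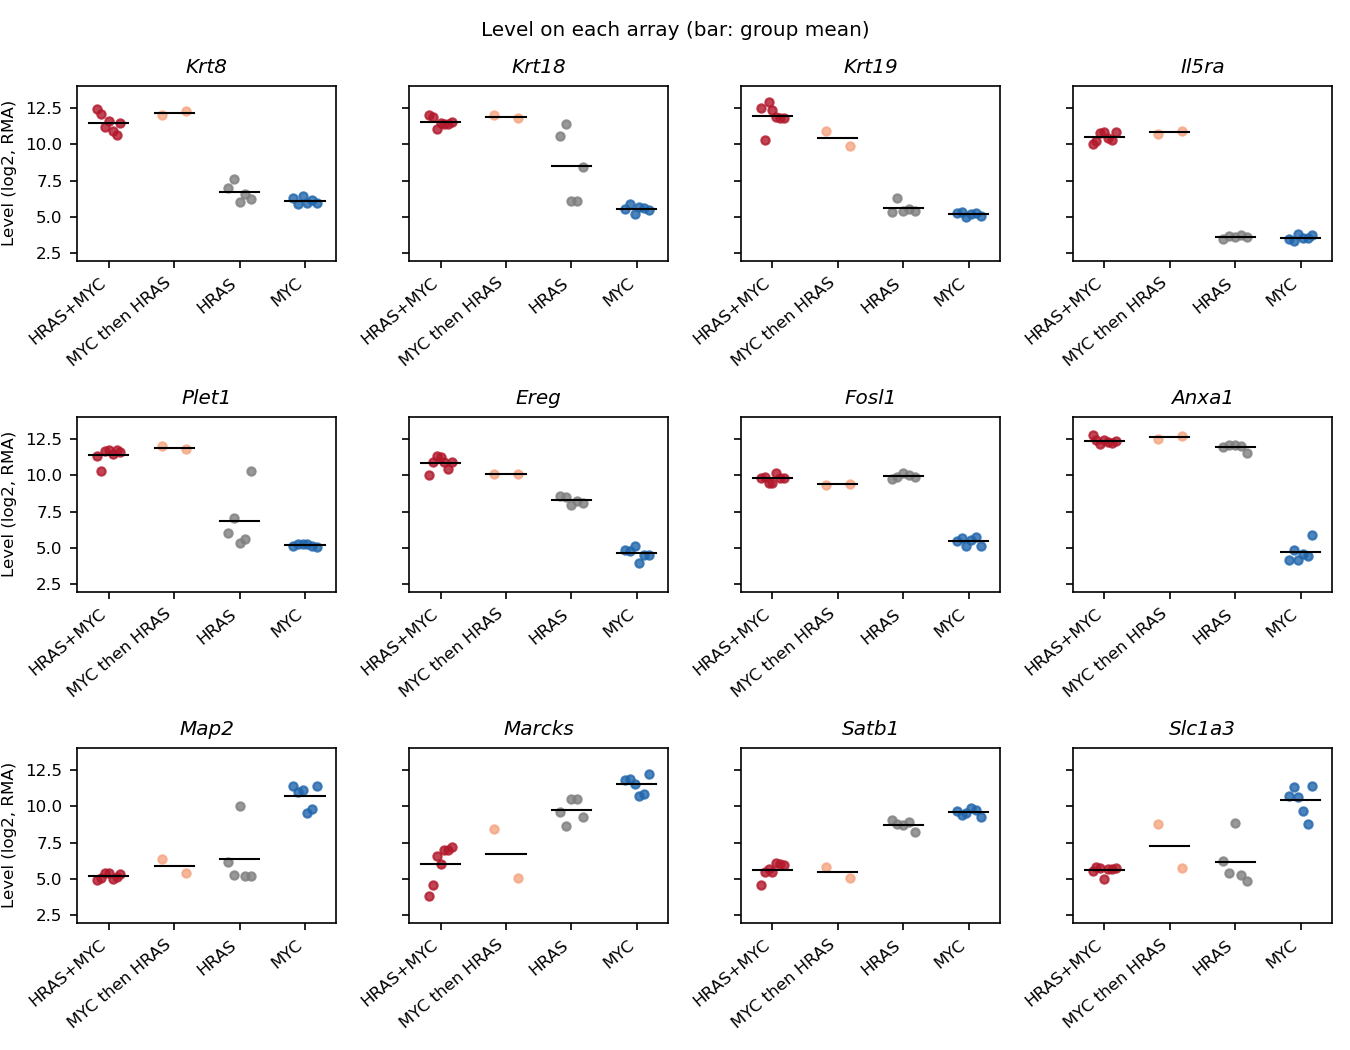
Level (log2, RMA) of 12 genes on each array of HRAS+MYC (n = 7), MYC then HRAS (n = 2), HRAS (n = 5) and MYC (n = 6) cultures, with a bar at each group's mean. Krt8, Krt19 and Il5ra are high only where both oncogenes were added among these 4 groups, Fosl1 and Anxa1 are high in every group with HRAS, and Map2 and Slc1a3 are low in all HRAS+MYC arrays but vary within the HRAS group.

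Genes of mesenchymal cells rose beside the epithelial ones, with exceptions among the factors that repress E-cadherin. Of 16 genes of mesenchymal cells and of the epithelial to mesenchymal transition, 10 rose and 2 fell (median 1.25). Over all genes, 15.8% rose and 18.4% fell. The homeobox factor Prrx1 was 9.35 to 10.84 (median 10.55) in HRAS+MYC arrays and 4.68 to 8.08 (median 6.36) in MYC arrays, a rise of 3.90 ± 0.352 SE. The bHLH factor Twist2 rose by 4.46 ± 0.291 SE, and the matrix protein Tgfbi by 2.98 ± 0.344 SE. Both genes that fell encode zinc finger repressors of Cdh1. Zeb1 was 7.40 to 8.66 (median 8.19) in HRAS+MYC arrays and 9.33 to 10.23 (median 9.93) in MYC arrays, a fall of 1.70 ± 0.339 SE (adjusted p 0.000218). Zeb2 fell by 1.18 ± 0.31 SE (adjusted p 0.00362, and 0.0726 with replicate numbers as a block), with overlap. Among 15 smooth muscle and contractile genes 6 rose and 0 fell, with a median of 0.217, and of 0.119 without MYC replicates 4 and 5. The 6 included caldesmon (Cald1, 1.90 ± 0.223 SE), transgelin 2 (Tagln2, 2.40 ± 0.29 SE) and the tropomyosin Tpm2 (2.14 ± 0.204 SE).

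Calcium-binding and matrix-degrading proteins were among the genes with the widest separation. Of 16 annexins and S100 proteins 14 rose and 2 fell (median 3.18), where 15.8% of all genes rose and 18.4% fell. Anxa2, a receptor for plasminogen at the cell surface, was 12.05 to 12.44 (median 12.26) in HRAS+MYC arrays and 5.16 to 7.76 (median 5.83) in MYC arrays, a rise of 6.15 ± 0.33 SE. The members that fell were Anxa6, at 7.86 to 9.82 (median 9.59) in HRAS+MYC arrays and 10.18 to 11.31 (median 10.92) in MYC arrays, and the glial protein S100b, at 4.72 to 5.56 (median 5.13) in HRAS+MYC arrays and 4.65 to 7.00 (median 6.16) in MYC arrays. Anxa6 fell by 1.46 ± 0.268 SE without overlap. S100b fell by 0.83 ± 0.289 SE (adjusted p 0.0255), a call that was lost in several alternatives, with adjusted p of up to 0.133.

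In the urokinase system and the matrix proteases, 10 of 14 genes rose and 2 fell (median 1.56). The urokinase Plau was 8.88 to 11.23 (median 10.32) in HRAS+MYC arrays and 5.08 to 5.56 (median 5.18) in MYC arrays, and its receptor Plaur was 10.53 to 11.17 (median 10.81) in HRAS+MYC arrays and 5.54 to 7.60 (median 5.95) in MYC arrays. The protease inhibitor Timp1 rose by 5.22 ± 0.243 SE, whereas its relative Timp3 fell by 1.32 ± 0.405 SE (adjusted p 0.0119). Among integrins and laminins, 15 of 22 rose and 1 fell (2 without MYC replicates 4 and 5), with a median of 0.948. Itga3, which pairs with the beta 1 chain to bind laminin, was 10.30 to 10.69 (median 10.50) in HRAS+MYC arrays and 5.22 to 7.49 (median 5.60) in MYC arrays, and Itgb7, a beta chain of lymphocyte integrins, was 9.55 to 10.53 (median 9.87) in HRAS+MYC arrays and 4.91 to 6.12 (median 5.60) in MYC arrays. Lamb1, a laminin chain, rose by 3.39 ± 0.351 SE. The member that fell was Itgb8, which takes part in activating TGF-beta in the brain, by 3.13 ± 0.648 SE (adjusted p 0.000346). Its MYC arrays spread widely, at 4.22 to 9.76 (median 9.16), against 4.28 to 5.38 (median 4.71) in HRAS+MYC arrays. Of 16 collagens 5 rose and 1 fell, where 15.8% of all genes rose and 18.4% fell. Col18a1, a collagen of basement membranes, rose by 1.99 ± 0.174 SE and the fibrillar Col3a1 by 1.43 ± 0.303 SE. Both stood below their level in HRAS cells, by 2.29 ± 0.183 SE and 2.04 ± 0.319 SE.

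In the TGF-beta and BMP pathway, 12 of 24 genes rose and 7 fell, where 15.8% of all genes rose and 18.4% fell. The median was 0.466, and 0.263 without MYC replicates 4 and 5. The ligand Tgfb1 was 8.46 to 10.38 (median 10.04) in HRAS+MYC arrays and 5.39 to 5.95 (median 5.50) in MYC arrays, a rise of 4.30 ± 0.256 SE. Ltbp1, which binds latent TGF-beta to the matrix, rose by 4.03 ± 0.37 SE, and the BMP antagonist Grem1 by 3.88 ± 0.391 SE. The ligand Bmp7 fell by 1.30 ± 0.321 SE. Id2 and Id4, targets of BMP signalling that hold back differentiation, fell by 2.08 ± 0.427 SE and 1.77 ± 0.464 SE, both with overlap. Id2 alone ran from 5.38 to 9.36 across HRAS+MYC arrays.

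Among cytokines, chemokines and prostaglandin enzymes, 12 of 19 rose and 0 fell, with a median of 0.958. Besides Ptgs2, the prostaglandin E synthase Ptges was 6.97 to 9.74 (median 8.01) in HRAS+MYC arrays and 5.35 to 6.74 (median 6.10) in MYC arrays, a rise of 2.19 ± 0.379 SE. The alarmin Il33 rose by 3.88 ± 0.603 SE but varied widely, at 5.36 to 10.08 (median 8.75) in HRAS+MYC arrays and 4.15 to 4.62 (median 4.43) in MYC arrays. Cxcl10, a chemokine induced by interferon, was 5.63 to 9.50 (median 6.99) in HRAS+MYC arrays, 8.72, 9.52, 10.22, 10.71 and 10.72 in HRAS arrays and 4.90 to 5.96 (median 5.45) in MYC arrays. It was 2.02 ± 0.469 SE above MYC cells (adjusted p 0.00113) and 2.47 ± 0.493 SE below HRAS cells (adjusted p 0.000434). Of 14 genes for the interferon response and class I antigen presentation, 2 rose and 1 fell against MYC (15.8% and 18.4% of all genes). The rises numbered 4 when only the 2 groups were fitted, 5 in centred arrays and 3 without MYC replicates 4 and 5. B2m, the light chain of class I molecules, rose by 1.27 ± 0.266 SE, and the peptide loading factor Tapbp by 1.54 ± 0.211 SE. Ifit2 fell by 1.30 ± 0.38 SE (adjusted p 0.00819, and 0.121 without MYC replicates 4 and 5). Against HRAS, 0 of the 14 were higher and 12 were lower (11.7% and 13% of all genes), with a median of -1.22.

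Among all lists, the lowest medians were those of oligodendrocyte and neuronal genes, although without MYC replicates 4 and 5 the neural Sox median (-1.34) lay below the neuronal one (-1.17). Of 22 neuronal cytoskeleton and synapse genes, 14 fell and 2 rose, with a median of -1.34, where 18.4% of all genes fell. Map2, a microtubule protein of dendrites, was 4.90 to 5.44 (median 5.17) in HRAS+MYC arrays and 9.55 to 11.39 (median 11.05) in MYC arrays, a fall of 5.51 ± 0.515 SE (adjusted p 1.81e-09). Gria2, a glutamate receptor subunit, was 3.17 to 4.02 (median 3.66) in HRAS+MYC arrays and 7.21 to 8.67 (median 7.82) in MYC arrays. The RNA-binding protein Elavl4 fell by 3.04 ± 0.334 SE and the neuronal tubulin Tubb3 by 1.92 ± 0.407 SE, both without overlap. The 2 members that rose were Nefl and Stmn2. Nefl, the light neurofilament chain, was 7.42 to 10.52 (median 9.41) in HRAS+MYC arrays and 4.48 to 9.53 (median 5.57) in MYC arrays (difference 2.83 ± 0.645 SE, adjusted p 0.000969). Stmn2, a tubulin-binding protein of growth cones, differed by 2.34 ± 0.883 SE (adjusted p 0.0405), and this call was lost when any of 9 single arrays was left out. Other large falls took in the membrane glycoprotein Gpm6a, the adhesion protein Cntn1 and the RNA-binding protein Celf2. Gpm6a was 3.82 to 5.48 (median 4.43) in HRAS+MYC arrays and 10.01 to 12.05 (median 11.21) in MYC arrays, Cntn1 fell by 4.62 ± 0.532 SE, and Celf2 fell by 4.53 ± 0.255 SE. Stox2, which encodes a winged helix protein, was 3.28 to 5.04 (median 3.85) in HRAS+MYC arrays and 8.94 to 10 (median 9.85) in MYC arrays.

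Factors that specify neurons fell in part. Of 14 proneural and neuronal bHLH and related factors, 7 fell and 0 rose (median -0.868), but without MYC replicates 4 and 5 the number that fell was 3 and the median -0.11. The zinc finger factor Myt1 was 4.88 to 5.21 (median 5.13) in HRAS+MYC arrays and 7.89 to 9.20 (median 8.83) in MYC arrays, without overlap, and the zinc finger factor Insm1 fell by 1.45 ± 0.323 SE. The bHLH factor Neurod1 was 3.28 to 3.69 (median 3.48) in HRAS+MYC arrays and 3.39 to 10.83 (median 3.74) in MYC arrays, a difference of -2.47 ± 0.97 SE at an adjusted p of 0.0491, and the difference was -1.56 without MYC replicate 4, -1.50 without replicate 5 and -0.11 without both (adjusted p 0.184, 0.182 and 0.9). The call was also lost whenever an HRAS+MYC array was left out, with adjusted p of up to 0.0708. Of 10 Dlx and GABA genes 1 fell and 0 rose, where 18.4% of all genes fell and 15.8% rose. The member that fell was Dlx1, by 1.54 ± 0.47 SE (adjusted p 0.0112).

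Of 11 neural Sox factors 8 fell and 0 rose (median -0.915), where 18.4% of all genes fell and 15.8% rose. Without MYC replicates 4 and 5 the number that fell was 10. Sox11, a factor of immature neurons, was 5.57 to 9.47 (median 8.54) in HRAS+MYC arrays and 10.36 to 11.57 (median 10.83) in MYC arrays, a fall of 2.93 ± 0.456 SE. Sox8 and Sox6 of the glial lineages fell by 2.90 ± 0.516 SE and 2.28 ± 0.511 SE. Sox2, the neural stem cell factor, was 9.69 to 10.71 (median 10.42) in HRAS+MYC arrays and 4.85 to 11.58 (median 10.90) in MYC arrays. Its difference of 1.02 ± 0.72 SE did not pass (adjusted p 0.296), and without MYC replicates 4 and 5 it was -0.80 (adjusted p 0.0133), so both the sign and the call rested on those 2 cultures.

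Most oligodendrocyte genes fell, while astrocyte genes moved in both directions. Of 15 oligodendrocyte lineage genes 9 fell and 0 rose, with a median of -1.98, and without MYC replicates 4 and 5 the number that fell was 12 and the median -3.14. Olig2, the factor of oligodendrocyte precursors, was 4.63 to 5.32 (median 5.02) in HRAS+MYC arrays and 5.02 to 10.57 (median 9.80) in MYC arrays, a fall of 3.51 ± 0.928 SE (adjusted p 0.00378). The matrix protein brevican (Bcan) was 5.20 to 5.93 (median 5.37) in HRAS+MYC arrays and 6.46 to 11.51 (median 10.58) in MYC arrays, without overlap. Neurocan (Ncan), a matrix proteoglycan, fell by 3.94 ± 0.548 SE and the gap junction gene Gjc3 by 2.87 ± 0.719 SE. Of 16 genes of astrocytes and radial glia 7 fell and 3 rose (median -0.49), where 18.4% of all genes fell and 15.8% rose. Without MYC replicates 4 and 5, 8 fell and 1 rose (median -0.783). The glutamate transporter Slc1a3 was 4.99 to 5.84 (median 5.69) in HRAS+MYC arrays and 8.78 to 11.39 (median 10.68) in MYC arrays, a fall of 4.81 ± 0.521 SE. The radial glial lipid carrier Fabp7 fell by 5.04 ± 1.25 SE and the glial aldolase Aldoc by 1.86 ± 0.526 SE. The member with the largest rise was Slc7a11, a cystine transporter, at 9.91 to 11.47 (median 11.27) in HRAS+MYC arrays and 6.01 to 8.24 (median 6.91) in MYC arrays (a rise of 4.07 ± 0.449 SE). The gap junction gene Gja1 differed by 1.40 ± 0.535 SE (adjusted p 0.044) and the Notch target Hes1 by 0.53 ± 0.195 SE (adjusted p 0.0349). Both calls were lost without MYC replicates 4 and 5, where Gja1 differed by 0.30 (adjusted p 0.619) and Hes1 by 0.50 (adjusted p 0.0928). That of Gja1 was also lost with only the 2 groups fitted, with array weights and with replicate numbers as a block (adjusted p 0.1166, 0.1386 and 0.2075). Both were lost in several fits with 1 array left out, with adjusted p of up to 0.1734 for Gja1 and 0.0755 for Hes1. Gfap, the intermediate filament of astrocytes, did not pass, at 5.03 to 6.71 (median 5.20) in HRAS+MYC arrays and 4.71 to 9.08 (median 5.34) in MYC arrays (difference -0.43 ± 0.443 SE, adjusted p 0.492), and the sign turned without MYC replicate 6 (0.21).

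In the Notch, Hedgehog and WNT pathways more genes fell than rose, where 18.4% of all genes fell and 15.8% rose. In the Notch pathway 7 of 14 fell and 3 rose, with a median of -0.793. The ligand Dll1 was 6.23 to 7.76 (median 7.07) in HRAS+MYC arrays and 7.88 to 9.92 (median 9.18) in MYC arrays, and the ligand Dll3 was 5.38 to 5.68 (median 5.55) in HRAS+MYC arrays and 5.93 to 9.91 (median 7.49) in MYC arrays. Hey1, a target gene, fell by 1.77 ± 0.355 SE. The ligand Jag1 moved the other way, at 8.56 to 11.67 (median 10.89) in HRAS+MYC arrays and 7.62 to 8.45 (median 8.03) in MYC arrays (a rise of 2.53 ± 0.31 SE), and the DNA-binding factor Rbpj rose by 0.83 ± 0.147 SE. In the Hedgehog pathway 7 of 11 fell and 0 rose (median -0.508), although 5 fell and 2 rose when arrays were centred on their medians. Gas1 and Boc, which bind the ligand beside its receptor, fell by 1.87 ± 0.281 SE and 1.53 ± 0.207 SE, both without overlap. In the WNT pathway 8 of 20 fell and 2 rose (median -0.48, and -0.937 without MYC replicates 4 and 5). Lgr5, a receptor for R-spondins, was 4.35 to 5.27 (median 4.96) in HRAS+MYC arrays and 7.48 to 9.48 (median 8.51) in MYC arrays, the secreted WNT binder Sfrp2 fell by 3.65 ± 0.457 SE and the receptor Fzd9 by 2.21 ± 0.251 SE. The ligand Wnt7b rose by 2.97 ± 0.269 SE and the receptor Fzd1 by 2.72 ± 0.308 SE. Among 30 axon guidance and Eph genes, 13 fell and 5 rose, against the same shares of all genes. Robo1, the Slit receptor, fell by 2.55 ± 0.404 SE, the semaphorin Sema6a by 2.24 ± 0.287 SE and the ephrin receptor Epha3 by 1.93 ± 0.553 SE, whereas the secreted semaphorin Sema3a rose by 3.14 ± 0.573 SE.

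Other genes lay below both single-oncogene groups, and those named here were each lower on all HRAS+MYC than on all MYC arrays. The 8 with the largest smaller fall were Tspan12, Marcks, Nrep, Satb1, Tspan2, Vopp1, Nnat and Rnf130. Marcks, a substrate of protein kinase C at the membrane, was 3.80 to 7.23 (median 6.59) in HRAS+MYC arrays, 5.04 and 8.45 in MYC then HRAS arrays, 8.67, 9.28, 9.57, 10.51 and 10.53 in HRAS arrays and 10.68 to 12.24 (median 11.67) in MYC arrays. It was 5.48 ± 0.511 SE below MYC cells and 3.69 ± 0.538 SE below HRAS cells. Satb1, which organises chromatin loops, was 4.60 to 6.12 (median 5.70) in HRAS+MYC arrays, 5.06 and 5.84 in MYC then HRAS arrays, 8.22, 8.69, 8.80, 8.92 and 9.05 in HRAS arrays and 9.25 to 9.88 (median 9.57) in MYC arrays. The tetraspanin Tspan12, a co-receptor for norrin, fell by 3.75 ± 0.49 SE against MYC and by 4.05 ± 0.515 SE against HRAS. Tspan2, a tetraspanin of oligodendrocytes, fell by 2.97 ± 0.448 SE and 3.27 ± 0.471 SE in the same 2 comparisons. Nrep fell by 3.12 ± 0.358 SE and 3.19 ± 0.377 SE, Vopp1 by 2.87 ± 0.284 SE and 2.96 ± 0.299 SE, and the ubiquitin ligase Rnf130 by 3.74 ± 0.231 SE and 2.71 ± 0.243 SE. Nnat, an imprinted gene of developing brain, was 5.25 to 5.89 (median 5.56) in HRAS+MYC arrays, 5.09, 8.11, 9.17, 9.38 and 9.98 in HRAS arrays and 9.09 to 12.06 (median 10.16) in MYC arrays, so 1 HRAS culture was as low as those with both oncogenes.

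Chromatin regulators differed by smaller steps. Of 26 SWI/SNF subunits 17 fell and 0 rose (median -0.477), where 18.4% of all genes fell and 15.8% rose. For 12 of them the arrays did not overlap (8.04% of all genes). With centred arrays 15 fell and 1 rose, and 14 fell and 2 rose without MYC replicates 4 and 5. The largest falls were those of Bcl7a, an accessory subunit, and Smarca2, the alternative ATPase BRM. Bcl7a was 6.84 to 8.33 (median 7.14) in HRAS+MYC arrays and 9.46 to 10.24 (median 9.97) in MYC arrays, a fall of 2.54 ± 0.175 SE. Smarca2 was 5.17 to 6.05 (median 5.68) in HRAS+MYC arrays, 7.15, 7.23, 7.35, 8.24 and 8.33 in HRAS arrays and 7.54 to 8.95 (median 8.10) in MYC arrays. It was 2.50 ± 0.223 SE below MYC cells and 2.04 ± 0.235 SE below HRAS cells. Smarcd3, a subunit of muscle and neural forms of the complex, fell by 1.86 ± 0.233 SE. Against HRAS, 6 of the 26 subunits were lower and 3 higher, where 13% of all genes were lower and 11.7% higher. Smarcb1 did not pass against HRAS (difference -0.26 ± 0.103 SE, adjusted p 0.0631).

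**Figure D4:**
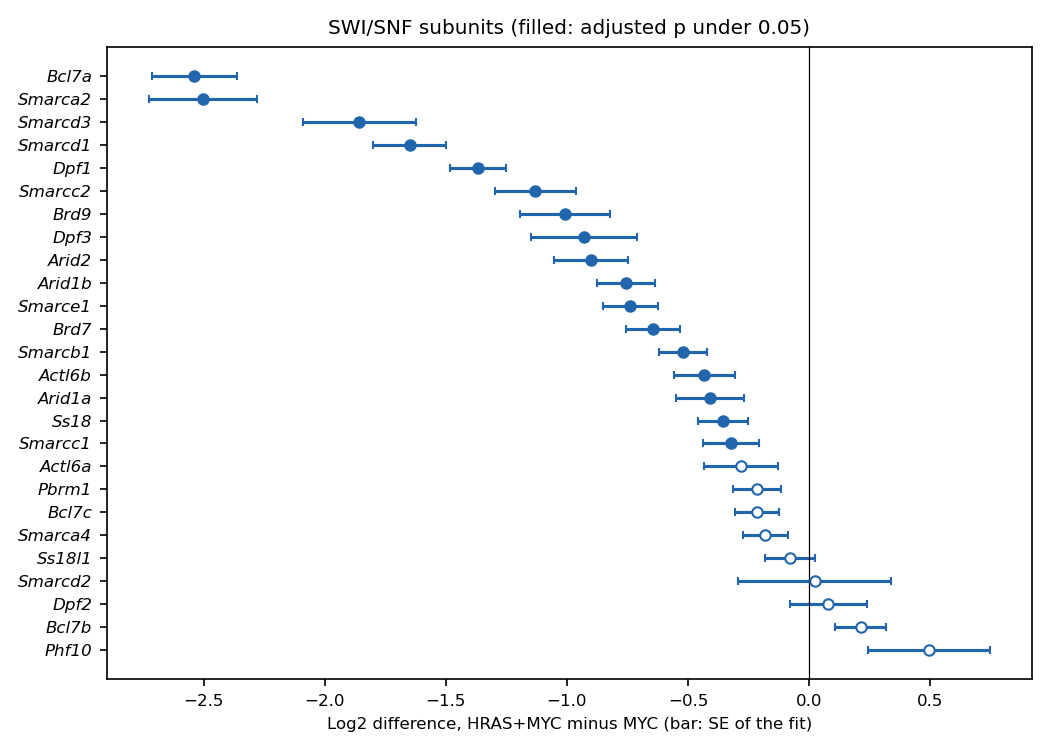
Log2 difference between HRAS+MYC and MYC cells for 26 SWI/SNF subunits, with the standard error of the fit as a bar and filled points for those that passed. All 17 filled points lie left of 0, with Bcl7a and Smarca2 near -2.5, Smarcb1 at -0.52 and Smarca4 among the open points at -0.18.

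Of 24 Polycomb subunits, 7 fell and 5 rose, where 18.4% of all genes fell and 15.8% rose, with a median of -0.0253 that turned to 0.0804 in centred arrays and 0.056 without MYC replicates 4 and 5. Phc1 and Pcgf2 of complex 1 fell by 1.41 ± 0.158 SE and 0.72 ± 0.113 SE, without overlap. Bmi1, which was an added oncogene elsewhere in the study, was 8.94 to 9.78 (median 9.33) in HRAS+MYC arrays and 9.58 to 10.07 (median 9.92) in MYC arrays, a fall of 0.53 ± 0.15 SE (adjusted p 0.00677). Ezh2, the methyltransferase of complex 2, fell by 0.51 ± 0.142 SE (adjusted p 0.00601, and 0.0506 without MYC replicates 4 and 5). Phf19, an accessory subunit of complex 2, rose by 1.17 ± 0.241 SE.

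Few genes of ribosome biogenesis and other MYC-linked synthesis, or of mitosis, passed between these groups. Of 22 genes for ribosome biogenesis and other MYC-linked synthesis 2 rose and 0 fell, below the share of all genes, with a median of -0.0356, and of 0.0797 without MYC replicates 4 and 5. The 2 rises were those of Odc1, which makes polyamines (0.98 ± 0.166 SE), and lactate dehydrogenase A (Ldha, 0.55 ± 0.113 SE). In this fit no ribosome biogenesis factor passed. In centred arrays, and without MYC replicates 4 and 5, 3 of the 22 rose. Set against HRAS cells, which carried no added MYC, all 22 were higher, with a median of 0.846. The Myc probe set read 7.24 to 7.96 (median 7.78) in HRAS+MYC arrays, 10.44, 10.71, 10.92, 11.88 and 12.85 in HRAS arrays and 6.12 to 8.23 (median 7.04) in MYC arrays. The difference from MYC cells, 0.66 ± 0.311 SE, did not pass (adjusted p 0.107), though it did without MYC replicate 6 (0.90, adjusted p 0.0194) and with array weights (0.71, adjusted p 0.0434). Whether this probe set reads the added MYC is not given in the labels. Among 12 MYC family and MAX network genes, 4 fell and 2 rose, where 18.4% of all genes fell and 15.8% rose. Mycl fell by 0.95 ± 0.165 SE, Mycn by 0.84 ± 0.287 SE (adjusted p 0.0235, and by 0.52 with an adjusted p of 0.0898 without MYC replicate 6) and the MAX partner Mxd4 by 0.80 ± 0.228 SE (adjusted p 0.00668, and 0.0976 with replicate numbers as a block). Mxd1, which opposes MYC, rose by 1.46 ± 0.298 SE and Mlx by 0.82 ± 0.162 SE.

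Of 21 replication and mitosis genes 2 rose and 1 fell, where 15.8% of all genes rose and 18.4% fell. Aurka and Bub1, kinases of mitosis, rose by 0.66 ± 0.194 SE and 0.72 ± 0.214 SE, and Mki67, the proliferation antigen, fell by 0.82 ± 0.235 SE (adjusted p 0.00735). Without MYC replicate 6 the rise of Aurka was 0.42 and that of Bub1 0.43. All 3 calls were lost with replicate numbers as a block (adjusted p 0.0705, 0.14 and 0.0605), and that of Mki67 also without MYC replicates 4 and 5 (adjusted p 0.0632). Among 17 G1 cyclins, CDKs and CDK inhibitors, 4 rose and 5 fell, against the same shares of all genes. In centred arrays 6 of the 17 rose and 2 fell. The neighbouring inhibitor genes Cdkn2a and Cdkn2b both rose. Cdkn2a was 9.95 to 10.80 (median 10.33) in HRAS+MYC arrays and 8.44 to 9.23 (median 9.04) in MYC arrays, a rise of 1.38 ± 0.141 SE. Cdkn2b was 9.11 to 10.56 (median 9.84) in HRAS+MYC arrays and 6.10 to 6.98 (median 6.55) in MYC arrays, a rise of 3.28 ± 0.272 SE. Cdkn1b, the inhibitor p27, moved the other way, at 7.56 to 8.67 (median 7.94) in HRAS+MYC arrays and 9.39 to 10.33 (median 9.55) in MYC arrays. The kinase Cdk6 rose by 2.25 ± 0.446 SE.

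Glycolysis genes rose. Of 18 glycolysis and hypoxia genes 14 rose and 0 fell, with a median of 0.807. The glucose transporter Slc2a1 was 11.29 to 12.05 (median 11.69) in HRAS+MYC arrays and 7.60 to 9.33 (median 8.45) in MYC arrays, a rise of 3.23 ± 0.247 SE. The lactate exporter Slc16a3 rose by 3.68 ± 0.534 SE and the hypoxia-induced Ndrg1 by 3.49 ± 0.42 SE. Ldha, near the top of the scale in both groups, rose by 0.55 ± 0.113 SE. It was counted with the MYC-linked synthesis genes above and not among these 18. Of 13 cholesterol synthesis genes 2 rose and 2 fell, shares near those of all genes (15.8% and 18.4%), with Hmgcs1 falling by 0.61 ± 0.122 SE. Of 12 p53 family members and targets 4 rose and 2 fell in these p53-deficient cells, against the same shares of all genes. Perp, a desmosomal protein that p63 also controls, was 9.08 to 9.57 (median 9.28) in HRAS+MYC arrays and 5.37 to 5.73 (median 5.55) in MYC arrays, the receptor Eda2r rose by 2.01 ± 0.37 SE, and the stress sensor Sesn1 fell by 2.04 ± 0.196 SE.

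A list of genes that mark subgroups of human AT/RT mixes markers of different subgroups, so its count cannot show a match to 1 of them. Of 15 such genes taken from the human disease 7 fell and 1 rose, where 18.4% of all genes fell and 15.8% rose. Some of the 15, among them Dll1, Dll3 and Mycn, also belong to other lists described above. Otx2, a marker of 1 subgroup, fell by 1.61 ± 0.52 SE (adjusted p 0.0164, lost in 4 alternatives other than the fold test with adjusted p of up to 0.144, and at a fall of 1.06 without MYC replicate 2). Of 37 Hox genes, which mark posterior identity, 6 rose and 0 fell, where 15.8% of all genes rose and 18.4% fell. Hoxa6, for example, was 5.15 to 5.50 (median 5.44) in HRAS+MYC arrays and 4.80 to 4.99 (median 4.98) in MYC arrays, and with centred arrays 15 of the 37 rose. Of 12 oncofetal and pluripotency genes 3 rose and 0 fell, against the same shares of all genes. The chromatin protein Hmga2 was 9.25 to 9.58 (median 9.53) in HRAS+MYC arrays, 9.96, 10.31, 10.65, 11.04 and 11.12 in HRAS arrays and 5.81 to 6.38 (median 6.01) in MYC arrays, a rise of 3.42 ± 0.148 SE, and Klf4 rose by 2.05 ± 0.223 SE.

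MicroRNA genes were mostly near the floor of the scale, with a median level of 4.09 in HRAS+MYC and 4.12 in MYC arrays over 297 genes. Of these 15 were higher and 27 lower in HRAS+MYC cells, fewer in each direction than among all genes. Of those that passed, 4 are shown because of their known roles, miR-9 and miR-181 in neural development and miR-31 and miR-221 as microRNAs raised in many carcinomas. The probe sets read the microRNA gene or its precursor and not the mature strand. Sequences are the mature strands of RefSeq (GRCm38.p6), with the seed, bases 2 to 8, in capitals. The genes lie at chr3:88215613-88215673 (Mir9-1), chr1:137966650-137966710 (Mir181b-1), chr4:88910577-88910635 (Mir31) and chrX:19146307-19146369 (Mir221), spanning the 2 strands shown of each.
mmu-miR-9-5p: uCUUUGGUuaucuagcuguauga
mmu-miR-9-3p: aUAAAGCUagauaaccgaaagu
mmu-miR-181b-5p: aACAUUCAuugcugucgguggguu
mmu-miR-181b-1-3p: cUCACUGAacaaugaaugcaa
mmu-miR-31-5p: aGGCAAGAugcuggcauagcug
mmu-miR-31-3p: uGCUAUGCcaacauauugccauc
mmu-miR-221-3p: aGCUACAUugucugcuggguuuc
mmu-miR-221-5p: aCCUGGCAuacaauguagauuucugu
No seed is shared among these strands. Mir9-1 was 4.44 to 5.37 (median 4.88) in HRAS+MYC arrays and 5.28 to 8.90 (median 6.55) in MYC arrays, with overlap, a fall of 1.82 ± 0.356 SE (adjusted p 0.000172). Mir181b-1 was 3.22 to 3.89 (median 3.72) in HRAS+MYC arrays and 4.17 to 6.21 (median 5.26) in MYC arrays, without overlap, a fall of 1.75 ± 0.281 SE. Mir31 was 4.65 to 5.43 (median 5.07) in HRAS+MYC arrays and 4.09 to 4.69 (median 4.26) in MYC arrays, a rise of 0.77 ± 0.213 SE. Mir221 was 3.80 to 4.93 (median 3.98) in HRAS+MYC arrays and 3.29 to 3.45 (median 3.32) in MYC arrays, a rise of 0.74 ± 0.142 SE with both medians below the lower quartile of all gene values.

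Few genes separated cultures given both oncogenes together from cultures given MYC first and HRAS later. Between HRAS+MYC (n = 7) and MYC then HRAS (n = 2) arrays, 22 genes (0.11%) passed in limma, 8 higher (0.0401%) and 14 lower (0.0702%) in HRAS+MYC, with 1470 genes at an unadjusted p under 0.05. The small group limits this comparison, and the count was 0 with replicate numbers as a block, 43 without HRAS+MYC replicate 1 and 40 without HRAS+MYC replicate 2. The largest difference was that of the protocadherin Pcdh7, at 9.31 to 10.47 (median 10.23) in HRAS+MYC arrays, 6.47 and 6.90 in MYC then HRAS arrays and 4.82 to 7.91 (median 6.23) in MYC arrays, a difference of 3.40 ± 0.482 SE (adjusted p 0.000898). Padi4, which converts arginine to citrulline in proteins, was 4.65 to 7.35 (median 5.83) in HRAS+MYC arrays, 7.95 and 8.35 in MYC then HRAS arrays and 4.17 to 4.35 (median 4.29) in MYC arrays. Upb1, an enzyme of pyrimidine breakdown, was 1.48 ± 0.147 SE lower in HRAS+MYC than in MYC then HRAS arrays (adjusted p 2.45e-06). None of the 3 keratins passed, with differences of 1.51 ± 0.376 SE for Krt19 (adjusted p 0.119), -0.68 ± 0.338 SE for Krt8 and -0.37 ± 0.816 SE for Krt18.

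Among the genes that varied most between HRAS+MYC cultures were Serpinb11, Prl2c5, Pnpla1 and Akr1c18. Serpinb11, a serpin, was 3.20 to 9.40 (median 8.27) in HRAS+MYC arrays and 2.74 to 3.30 (median 2.94) in MYC arrays, so 1 or more HRAS+MYC cultures stood at the MYC level. Prl2c5, of the placental prolactin family, was 4.89 to 10.99 (median 6.22) in HRAS+MYC arrays and 3.05 to 3.97 (median 3.61) in MYC arrays. Pnpla1, a lipid enzyme of skin, was 4.67 to 10.60 (median 9.48) in HRAS+MYC arrays and 4.56 to 4.90 (median 4.79) in MYC arrays. Akr1c18, which inactivates progesterone, was 5.29 to 11.09 (median 7.34) in HRAS+MYC arrays and 3.24 to 3.73 (median 3.59) in MYC arrays. Across these 4 genes, even where the group rose as a whole, single HRAS+MYC cultures differed by more than 5 log2 units.

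Markers of other cell types were low in both groups. Of 11 microglia and macrophage markers 1 passed, where 34.2% of all genes passed. Their mean level ran from 5.06 to 5.38 in HRAS+MYC arrays and from 4.72 to 4.86 in MYC arrays. The marker that passed was Cd68, a lysosomal protein, at 8.62 to 10.96 (median 9.42) in HRAS+MYC arrays and 5.62 to 6.79 (median 5.87) in MYC arrays, while the defining markers were low. Aif1 averaged 4.36 in HRAS+MYC and 4.29 in MYC arrays, and Ptprc, the leukocyte antigen CD45, averaged 4.85 in HRAS+MYC and 4.50 in MYC arrays. With centred arrays 3 of the 11 passed, all higher. Ptprc did not pass, but did so as higher in centred arrays (adjusted p 0.0241) and in 3 fits with 1 array left out. Of 7 endothelial markers 1 passed (4 with centred arrays, all higher), the VEGF receptor Flt1, with a rise of 2.40 ± 0.311 SE, and the list's mean level was 5.26 to 5.85 in HRAS+MYC arrays and 5.05 to 5.22 in MYC arrays. The endothelial adhesion molecule Pecam1 averaged 5.16 in HRAS+MYC and 5.02 in MYC arrays. Of 4 pericyte, 5 ependymal, 5 choroid plexus and 4 meningeal fibroblast markers, 0, 1, 0 and 1 rose and 0 fell, with 3 ependymal and 1 choroid plexus marker higher in centred arrays, and the 1 erythroid marker measured did not pass. The sex of the cells is not given, and Xist ran from 3.79 to 9.42 in HRAS+MYC arrays and from 3.79 to 11.05 in MYC arrays, so cultures of differing sex-linked expression were present in both groups.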

How the data were processed

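RNA of each culture was hybridised to 1 Affymetrix Mouse Gene 1.0 ST array. The deposited values are log2 expression levels that the authors made with RMA. The program was Affymetrix Expression Console 1.0, as the submitters' processing notes state. They run from 1.44 to 14.5 with array medians of 5.59 to 5.79. RMA gives all arrays 1 distribution of probe values, so a general rise or fall of RNA would not be seen, and changes of weak probe sets are understated. Of 35557 probe sets, 21789 have 1 gene symbol in the platform annotation, 1621 several and 12147 none. Of those with 1 symbol, 99.58% were found in RefSeq. For 999 genes with several probe sets only the brightest, by its mean over the 32 arrays, was kept, which left 19938 genes.

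The 8 groups of the study were fitted together, 1 coefficient per group, with limma 3.58.1 in R 4.3.3, with eBayes moderation. Adjusted p-values are those of limma's 2-sided test with Benjamini-Hochberg adjustment over all genes of 1 comparison, and a gene passed under 0.05. Differences are HRAS+MYC minus the other group. On simulated data 54%, 86% and 99% of genes changed by 0.5, 1 and 2 log2 units were recovered, and 3.43% of calls were unchanged genes. The simulated arrays were independent, with 1 spread per gene for all groups and few changed genes, so these rates need not hold for the real arrays. The number of arrays limits the precision.

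The members and lists were chosen with earlier results of these data known. Named genes were taken by rule from the 15 largest rises and falls without overlap, up to 3 passing members per direction of each list, 19 marker and oncogene names whatever their values, the 8 largest changes in the same direction against both MYC and HRAS, and the 8 most variable genes of each group. The text names a part of these. Of the 19 names, Cdkn1a was not measured, and Nes was measured but its values are not given here. Unnamed gene models, small RNAs and sex-linked genes stayed out of the largest changes, the changes against both groups and the most variable genes. The lists had no such filter, so the X-linked Timp1 and Eda2r are named. Cldn6, Epcam, Cdh1, Cd68, Flt1, Aif1, Ptprc, Pecam1, Pcdh7, Padi4, Upb1 and the 4 microRNA genes were named after their values were seen. Deviations of same-numbered replicates from their group means correlated at -0.0921 to 0.122 in the main comparison, so the main fit used no pairing. Replicate 6 alone matched its own number best. This check cannot exclude that same-numbered cultures share an origin. Alternatives were 2 groups only, trend and robust moderation, array weights, the mean of all probe sets, a filter at a level of 6, median-centred arrays, a test for a difference beyond 1, a replicate block, MYC replicates 4 and 5 left out, and each array left out.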

Additional observations from a re-analysis of the deposited data

Results flagged for a closer look

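In 32 of 338 combinations of a named gene and a group, the highest or lowest array stood apart from the rest of its group by Dixon's test at the 95% level, which chance passes in about 1 of 20 groups. HRAS+MYC replicates 1 and 2 gave 8 and 6 of them and MYC replicate 6 gave 5. No explanation was tested.

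HRAS+MYC replicate 1 was low for Anxa6 (7.86), Gja1 (8.74), Satb1 (4.60), Slc7a11 (9.91), Sox2 (9.69), Tspan12 (4.18) and Zeb2 (6.62), and high for Prl2c5 (10.99, where the other 6 arrays ran from 4.89 to 7.52). HRAS+MYC replicate 2 was low for Elavl4 (3.64), Flt1 (6.69), Plet1 (10.29), Tgfb1 (8.46) and Tgfbi (7.20), and high for Id4 (8.39). HRAS+MYC replicate 3 was high for Fabp7 (5.38) and Gfap (6.71) and low for Prrx1 (9.35). Single values stood apart for Slc1a3 in HRAS+MYC replicate 4 (4.99, low), Mir221 in replicate 5 (4.93, high) and Celf2 in replicate 7 (4.63, low).

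MYC replicate 6 was low for the mitotic kinases Aurka (8.81) and Bub1 (8.39) and high for Gfap (9.08, where the other 5 arrays ran from 4.71 to 5.83), Cd68 (6.79) and Nrep (10.13). MYC replicate 4 was low for Vim (9.16) and high for Itga3 (7.49). MYC replicate 5 was high for Slc16a3 (10.55) and Col3a1 (7.09). MYC replicate 1 was low for Timp1 (4.86) and Pecam1 (4.77), and MYC replicate 2 was low for Cdh17 (3.96).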

How the results depend on the processing

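Against MYC, the count of 6818 genes stayed within 1.5 times under every alternative except the test for a difference beyond 1 log2 unit, which gave 918. It was 4949 with the replicate block, 7967 with centred arrays, 6477 without MYC replicates 4 and 5, and 6282 to 6728 with 1 array left out. Against HRAS, the count of 4921 was 264 with the test beyond 1, 3375 with the replicate block and 4152 to 4779 with 1 array left out. Against MYC then HRAS, the count of 22 was 150 with array weights, 0 with the test beyond 1, 0 with the replicate block and 15 to 43 with 1 array left out. Whether replicate numbers pair samples was not settled. Against MYC, no HRAS+MYC array other than replicate 6 had deviations from its group mean that correlated best with those of its number. Against MYC then HRAS the check says little, because the deviations of 2 arrays mirror each other. With centred arrays the share of higher calls was 60.3% instead of 47.2% against HRAS and 42.9% instead of 36.4% against MYC then HRAS, and the medians of the ribosome biogenesis (0.0701), MYC family (0.0351), cholesterol (0.0298) and AT/RT subgroup (0.000793) lists, all below 0 in the main comparison, turned positive. Of the 169 genes named, 161 passed and 146 of these kept direction and call under all alternatives other than the test beyond 1. The sign turned for Sox2 with array weights (-0.019) and without MYC replicates 4 and 5 (-0.80), and for Gfap, which differed by -0.66 to 0.21 with 1 array left out, without MYC replicate 6. The cause of these changes was not tested. Probe sets near the lower quartile of 4.69, among them most microRNA and Hox genes, have little range for a fall.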

Other observations

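Whole chromosomes shifted in single cultures. Over genes with a mean level of at least 7, the median deviation from the group's own median was taken per chromosome and array. In HRAS+MYC arrays it was 0.31 for chromosome 3 in replicate 2 and 0.259 for chromosome 19 in replicate 1. In MYC arrays it was -0.549 for chromosome 14, -0.352 for chromosome 4 and 0.329 for chromosome 15 in replicate 4, and -0.361 for chromosome 19, 0.353 for chromosome 15 and -0.32 for chromosome 14 in replicate 5. MYC replicates 4 and 5 thus shared the direction on chromosomes 14 and 15, and they are the arrays that stood apart on the second principal component. DNA copy number was not measured, and a link between these shifts and the genes described was not tested.

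Among the genes that varied most between MYC cultures, Neurod1 (3.39 to 10.83), Fabp7 (4.54 to 12.23), Sox2 (4.85 to 11.58) and Gjc3 (3.81 to 9.55) each ranged over more than 5 log2 units in MYC arrays.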
